A study of Mus musculus with 24 samples.

Results

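The Hox genes are the 39 rows of the count table whose symbol is Hox, a cluster letter from a to d and a paralogue number, out of 55418 rows in all. Antisense and opposite-strand rows whose symbol begins with Hox, 6 in number, were left out. The members lie in 4 clusters: 11 genes of cluster a on chromosome 6 (52155590 to 52260880), 10 of cluster b on chromosome 11 (96194316 to 96368256), 9 of cluster c on chromosome 15 (102921103 to 103036852) and 9 of cluster d on chromosome 2 (74668310 to 74765142), all on GRCm38. All 39 symbols matched a gene of the GENCODE annotation of that build.

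Hox genes encode homeodomain transcription factors that give cells of the embryo their position along the head-to-tail axis. Within a cluster the genes stand in the order of their paralogue numbers, and low numbers are switched on early and rostrally, high numbers late and caudally. In the spinal cord, Hox5 to Hox8 genes are known from brachial levels, Hox9 genes from thoracic levels, Hox10 genes from the lumbar enlargement, where they take part in the choice of limb motor neuron columns, and Hox11 to Hox13 genes from the lumbosacral and tail levels. Many Hox genes stay transcribed in the adult cord.

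RNA was taken from segments L4 to L6 of the spinal cord of C57BL/6J mice that were 8 to 10 weeks old at the start. The 8 groups of 3 mice crossed genotype (wild-type, WT, or a myeloid-specific knockout of the nicotinic receptor subunit Chrna7, Chrna7-cKO), sex and treatment (paclitaxel, or its vehicle of Kolliphor, ethanol and water). Paclitaxel, a microtubule-binding cancer drug, was given at 1 mg/kg in 4 injections every other day, and tissue was collected on day 7 after the first of them. No source used here names the Cre driver of the knockout.

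Libraries held 88812295 to 112158154 counts. One of them, WT female paclitaxel replicate 3, stood apart: all 10 markers of sensory ganglion neurons, all 5 of Schwann cells and all 5 of skeletal muscle lay above all 23 other libraries, and all 5 astrocyte, all 5 oligodendrocyte and all 6 inhibitory neuron markers lay below. It is called the ganglion-like library, and the results on cords rest on the 23 others. In these 23 cords the lumbar markers Hoxa9, Hoxc10 and Hoxd10 had at least 5633, 3952 and 628 counts, and the forebrain and midbrain gene Otx2 had 0.

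Sequences just upstream of 3 genes that varied together between cords (Hoxa11, Hoxd10 and Hoxd11) and of a steady neighbour (Hoxd8) are shown, because the results turn on the contrast between them. The RefSeq promoter table (GRCm38.p6) held windows for 22 of the 39 members, 24 windows in all, and each is printed here as the 250 bases before the start site, 5′ to 3′ on the strand of the gene. Hoxc10 and Hoxc11 had no window. Capitals mark the E-box CACGTG. For Hoxd11, the downstream of its 2 start sites is shown; that window lies within an intron of the longer Hoxd11 transcript. The Hoxa11 window overlaps exons of noncoding transcripts on the other strand, Hoxa11os among them, and the windows of Hoxd10 and Hoxd8 overlap no annotated exon.
Hoxa11, chr6:52245811-52246060, minus strand: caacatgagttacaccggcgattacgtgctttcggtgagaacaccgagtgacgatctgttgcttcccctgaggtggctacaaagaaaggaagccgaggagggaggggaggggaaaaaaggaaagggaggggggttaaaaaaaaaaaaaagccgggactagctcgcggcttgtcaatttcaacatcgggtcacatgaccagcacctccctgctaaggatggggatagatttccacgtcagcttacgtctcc
Hoxd10, chr2:74691641-74691890, plus strand: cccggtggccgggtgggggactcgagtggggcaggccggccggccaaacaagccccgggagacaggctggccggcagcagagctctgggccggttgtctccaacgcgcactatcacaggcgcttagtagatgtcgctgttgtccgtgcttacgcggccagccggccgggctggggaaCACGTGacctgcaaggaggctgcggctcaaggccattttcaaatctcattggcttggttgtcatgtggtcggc
Hoxd11, chr2:74682073-74682322, plus strand: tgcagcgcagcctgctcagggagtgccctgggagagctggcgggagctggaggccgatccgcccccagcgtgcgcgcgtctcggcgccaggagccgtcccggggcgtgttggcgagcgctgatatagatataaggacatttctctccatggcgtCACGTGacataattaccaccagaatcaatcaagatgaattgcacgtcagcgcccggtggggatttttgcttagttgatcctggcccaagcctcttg
Hoxd8, chr2:74704365-74704614, plus strand: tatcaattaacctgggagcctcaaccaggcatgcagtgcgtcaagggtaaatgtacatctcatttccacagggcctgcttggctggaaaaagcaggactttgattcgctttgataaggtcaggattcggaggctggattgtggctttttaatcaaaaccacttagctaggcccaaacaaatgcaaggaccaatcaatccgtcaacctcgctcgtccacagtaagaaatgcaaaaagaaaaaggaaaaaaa
The E-box, a palindrome that reads alike on both strands, was in 4 of the 24 Hox windows (Hoxd1, Hoxd10, Hoxd11 and Hoxd13) and in 6.02% of 32851 promoter windows of the same length. The sequence TTTATNG, the core of a site known for caudal Hox and Cdx proteins, was searched on both strands and occurred in 2 Hox windows (Hoxb8 and Hoxd4) and in 9.81% of all windows. Hox windows held a median of 12.5 CG dinucleotides against 6 over all windows. These are matches of letters and say nothing of binding.

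The level of the Hox genes in the cord followed a hump along the paralogue numbers. Levels here are RPKM, that is CPM with TMM scaling factors per kilobase of exon, as the mean over 23 cords. Summed over the clusters, the level was 2.49 ± 0.247 (SD, n = 23) for paralogue 2, 14.2 ± 0.635 for paralogue 4, 84.1 ± 7.34 for paralogue 8 and 59.5 ± 3.30 for paralogue 9. Paralogue 10 still stood at 56.0 ± 6.86, and paralogue 11 at 4.69 ± 1.88. Paralogues 12 and 13 together lay below paralogue 2, at 0.155 ± 0.172 and 0.0854 ± 0.0479. In each of the 3 clusters that have both genes, the range of the paralogue 11 gene over cords lay below that of the paralogue 10 gene.

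**Figure D1:**
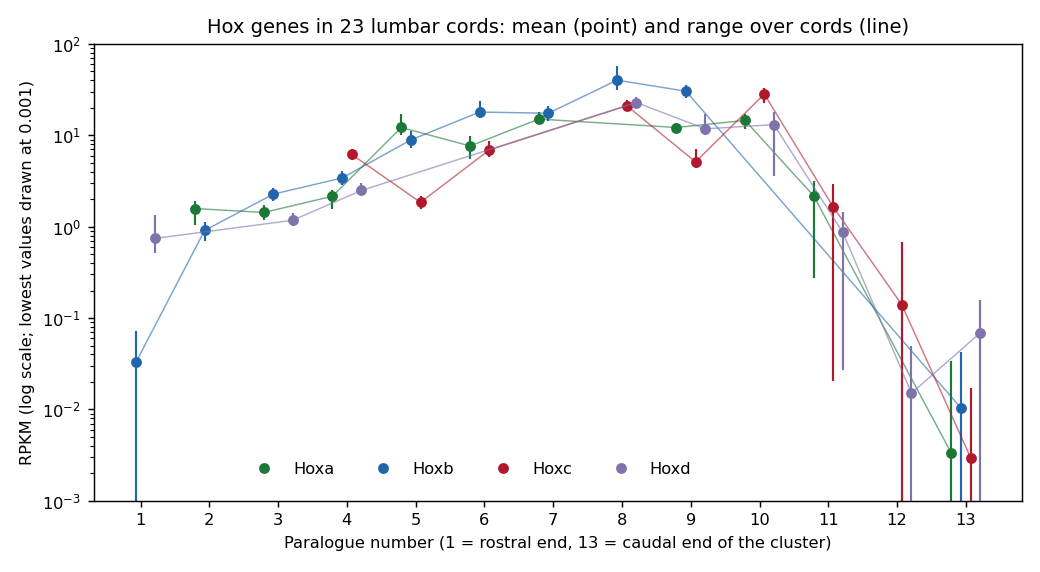
Mean level (RPKM, log axis) of 38 Hox genes in 23 cords by paralogue number, coloured by cluster, with lines from the lowest to the highest cord. Levels rise to paralogues 8 to 10 (Hoxb8 at 40.2, Hoxc10 at 28.3), and the lines of Hoxd10 and of the Hox11 genes are long.

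Hoxb8, a gene of brachial and thoracic position and of the dorsal horn, had the highest level of all members at 40.2 ± 6.23 RPKM (lowest cord 31.2, highest 57.0). Hoxb9, the most caudal gene of cluster b at a level above the floor, followed at 30.4 ± 2.43. The leading gene of cluster c was Hoxc10, a determinant of lumbar identity, at 28.3 ± 2.78, that of cluster d Hoxd8 at 22.9 ± 1.00, and that of cluster a Hoxa7 at 15.1 ± 1.08. Of the other lumbar genes, Hoxa10 had 14.6 ± 1.04, Hoxd10 13.1 ± 3.68 and Hoxa9 12.2 ± 0.615. In 37 of 38 neighbouring pairs in the order of levels the ranges over cords overlapped, the exception being Hoxc9 (5.12 ± 0.670) over Hoxb4 (3.42 ± 0.294). Both genes of a pair were measured in the same cords. Overlap of ranges therefore does not show whether their order held within each cord, which was not compared.

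Altogether 28 of 39 members reached a mean of 1 RPKM. The caudal end was faint. Hoxa11, a gene of limb and sacral position, had 2.16 ± 0.717 RPKM, Hoxc11 1.65 ± 0.811 and Hoxd11 0.870 ± 0.425. Hoxd13, the gene of the tail and digit end of cluster d, had 0.0688 ± 0.0432 with a median of 14 counts. The remaining paralogues of the caudal end had medians under 10 counts, at 9 for Hoxc12, 4 for Hoxd12, 2 for Hoxb13, 0 for Hoxa13 and 0 for Hoxc13, as did the hindbrain gene Hoxb1 at 7. Counts were made without strand, and exons that 2 genes share could not be assigned. Scaled by unshared exon length alone, the level of Hoxa11 (which shares exon bases with its antisense transcript Hoxa11os) became 3.32 RPKM, that of Hoxb3 4.83 instead of 2.27, that of Hoxd3 3.17 instead of 1.18 and that of Hoxd4 5.22 instead of 2.49.

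The largest spread between cords lay at the caudal end of the expressed range. It was measured as the ratio of a gene's own dispersion, edgeR's measure of squared relative variation between cords of a group, to the dispersion of genes at the same abundance. The ratio was 34.1 for Hoxc11, 31.2 for Hoxd11, 27.7 for Hoxd10, 15.4 for Hoxa11 and 14.2 for Hoxc12. Some genes of lower number were also above 1. Hoxb8 had 3.45 and Hoxa5 2.35, more than Hoxc10 at 2.23 and Hoxa10 at 1.17. Of 35 members that passed the filter on low counts, 20 had a ratio above 1, against 31.8% of the 25372 genes that passed. No test was made of this count, and the filter keeps a faint gene where a group has enough counts. The other end was held by Hoxa4 at 0.547, Hoxd4 at 0.637 and Hoxd3 at 0.638. The median ratio was 1.17 for the Hox genes tested and 0.835 for all genes. The SD of log2 CPM around the group means, which is not matched for abundance, had a median of 0.16 for the Hox genes and 0.18 for all genes.

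**Figure D2:**
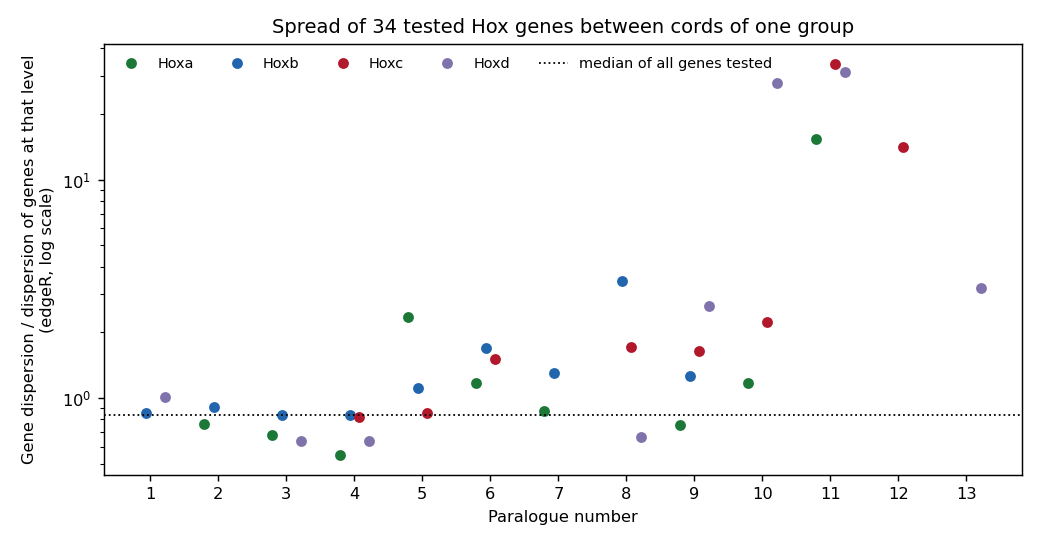
Ratio of a gene's dispersion to that of genes at its abundance (log axis) by paralogue number, for 34 tested Hox genes coloured by cluster, with the median of all genes tested as a dotted line. Hoxd10 (27.7), Hoxc11 (34.1), Hoxd11 (31.2), Hoxa11 (15.4) and Hoxc12 (14.2) stand above the others.

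Hoxd10, one of the Hox10 genes of lumbar motor columns, showed the spread at a well measured level. In CPM with TMM factors, replicates 1, 2 and 3 had 23.1, 29.5 and 16.2 among WT female vehicle cords, and 24.7, 29.9 and 12.1 among WT male vehicle cords. The WT female paclitaxel cords 1 and 2 had 13.997 and 27.8. The WT male paclitaxel cords had 30.6, 28.4 and 23.7. In 3 of these 4 groups a single cord was low. WT female paclitaxel is among the 3 but has only 2 cords, so within it a low cord and a high cord cannot be told apart. Among Chrna7-cKO cords, females under vehicle had 27.8, 24.4 and 26.4, and males under vehicle had 18.3, 25.2 and 26.6. Chrna7-cKO females under paclitaxel had 28.5, 17.05 and 24.7, and males under paclitaxel 33.0, 28.4 and 6.50. The lowest cord of all 23 and the highest were thus replicates of one group, Chrna7-cKO males under paclitaxel.

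Hoxc11, a gene of the lumbosacral transition, fell off in the same cords and further. WT female vehicle cords had 3.11, 4.88 and 1.03 CPM, and WT male vehicle cords 4.11, 4.54 and 0.476. WT females under paclitaxel had 0.882 and 4.35, and WT males under paclitaxel 4.61, 5.10 and 3.54. Within each of these sets the cord low in Hoxd10 was also the lowest in Hoxc11. Chrna7-cKO females under vehicle had 4.67, 3.83 and 4.21, and males 2.03, 3.59 and 3.11. Chrna7-cKO females under paclitaxel had 3.73, 1.16 and 3.21, and males 5.98, 4.74 and 0.0414, the last of them resting on 4 counts. That same cord had 11 counts of Hoxd11, 60 of Hoxa11 and 628 of Hoxd10, against highest values of 580, 688 and 3146 in the other cords.

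**Figure D3:**
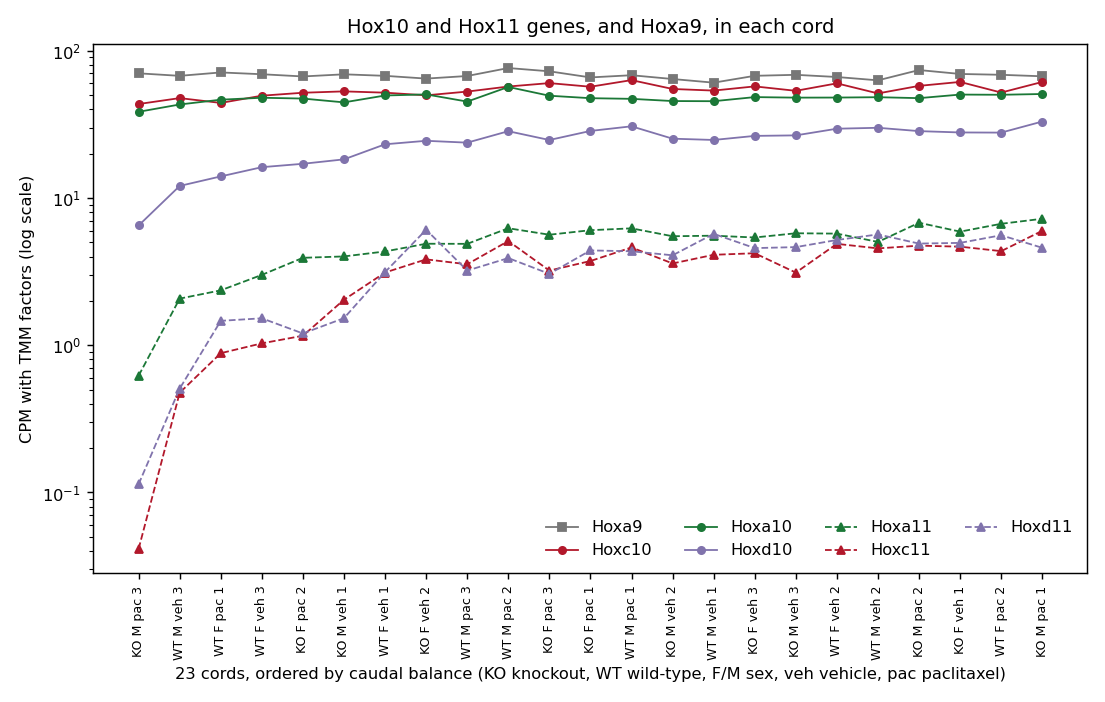
CPM (log axis) of Hoxa9, the 3 Hox10 genes and the 3 Hox11 genes in each of the 23 cords, ordered by caudal balance from left to right. Hoxa9 stays between 60.6 and 76.2, while Hoxc11 runs from 0.0414 to 5.98.

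The neighbours of these genes varied over narrower ranges. Hoxa9 ran from 60.6 to 76.2 CPM over the 23 cords and Hoxd8 from 58.2 to 72.3, with dispersion ratios of 0.750 and 0.662. Hoxa10 ran from 38.4 to 56.7, with a ratio of 1.17. Hoxc10 and Hoxd9 stood between these and the caudal genes. Hoxc10 ran from 43.4 to 63.1, with a ratio of 2.23, and Hoxd9, next to Hoxd10 in cluster d, from 21.8 to 36.1, with a ratio of 2.64. The lowest cord of Hoxd9 was not among those low in Hoxd10, whereas Hoxc10 followed Hoxd10 across cords, as given next.

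The caudal genes correlated with each other across the 23 cords. Over 23 cords, log2 CPM of Hoxa11 and Hoxc11 had a Pearson r of 0.981 (Spearman rho 0.850), Hoxc11 and Hoxd11 0.972 (rho 0.729) and Hoxa11 and Hoxd11 0.943 (rho 0.631), with adjusted permutation p of 2.25e-05 for each r, the smallest that 100000 resamples and adjustment over 9 pairs gave. The rho had adjusted permutation p of 0.00018, 0.00042 and 0.00347. The 3 clusters lie on different chromosomes. Hoxc10 and Hoxd10 had r = 0.806 (rho 0.753, adjusted permutation p = 2.25e-05 and 0.00027), and Hoxa10 and Hoxd10 r = 0.738 (rho 0.514, adjusted permutation p = 0.000216 and 0.0236). Without the 2 cords farthest from the median of the first gene, these 5 values of r were 0.918, 0.902, 0.797, 0.697 and 0.570, and each kept an adjusted permutation p under 0.05. With the 8 group means removed they were 0.989, 0.976, 0.962, 0.847 and 0.749. Leaving out 2 cords kept other low cords in. The same 6 cords were lowest in Hoxd10 and in all 3 Hox11 genes, without overlap with the other 17. In Hoxa11 these 6 had 0.621 to 4.01 CPM against 4.33 to 7.22. The r within the 17 cords was not computed, so a graded relation among them is not shown.

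Pairs that joined a rostral with a caudal gene of a cluster did otherwise. Hoxc8 and Hoxc10 had r = -0.54 (rho -0.45, adjusted permutation p = 0.0103 and 0.045, and r = -0.55 without 2 cords), so that Hoxc8, the brachial gene of cluster c, was higher where Hoxc10 was lower. Hoxd8 and Hoxd10 had r = 0.12 (rho 0.20, adjusted permutation p = 0.592 and 0.397), and without 2 cords 0.08. For Hoxa7 and Hoxa10 r was -0.0021 (rho -0.029, adjusted permutation p = 0.992 and 0.898), and without 2 cords -0.11. Hoxa10 and Hoxc10 had r = 0.54 (rho 0.38, adjusted permutation p = 0.0103 and 0.0915), which became 0.36 (adjusted permutation p = 0.141) without Chrna7-cKO male paclitaxel replicate 3 and WT male paclitaxel replicate 2, and so rests on those cords.

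A caudal balance was computed for each cord, as the mean log2 CPM of the 6 tested Hox10 and Hox11 genes minus that of 11 Hox5 to Hox8 genes. It had a median of -0.95 and an SD of 0.75 over the 23 cords. Chrna7-cKO male paclitaxel replicate 3 was lowest at -3.94. Then came WT male vehicle replicate 3 at -2.46, WT female paclitaxel replicate 1 at -2.15, WT female vehicle replicate 3 at -1.87, Chrna7-cKO female paclitaxel replicate 2 at -1.73 and Chrna7-cKO male vehicle replicate 1 at -1.63. The other 17 cords lay between -1.23 and -0.69. A line between these sets, at -1.5, was drawn after the values were seen. The 6 cords below it came from 6 different groups, 3 of each genotype, 3 of each treatment and 3 of each sex.

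**Figure D4:**
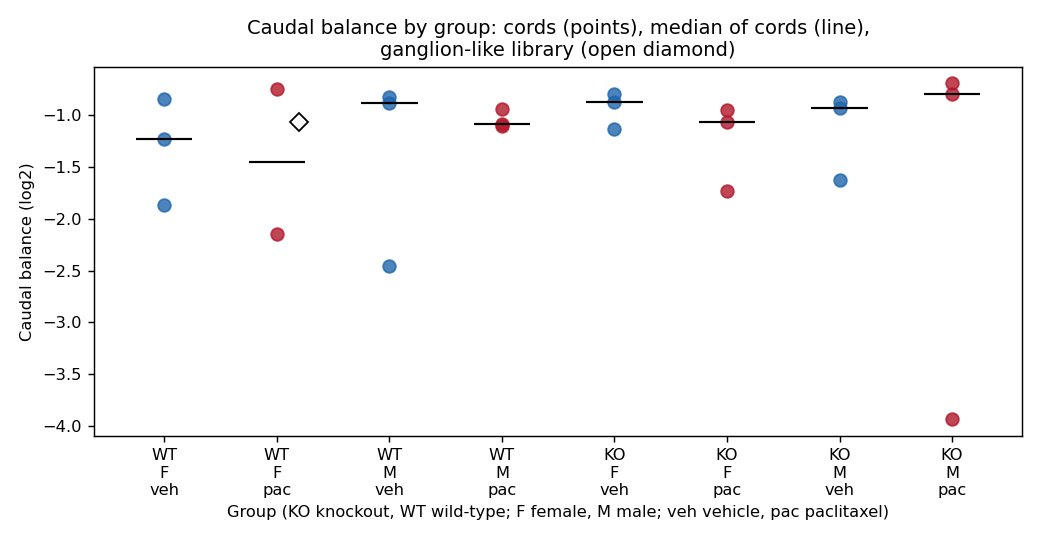
Caudal balance (log2) of each cord by group, with the median of the cords of a group as a line and the ganglion-like library as an open diamond. Single cords lie low in 6 of the 8 groups, the lowest at -3.94 among Chrna7-cKO males under paclitaxel.

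The balance did not separate the conditions. Its mean was -1.28 in both genotypes (SD 0.90 over 12 knockout cords and 0.59 over 11 wild-type cords), -1.38 ± 0.95 in 11 paclitaxel cords against -1.19 ± 0.53 in 12 vehicle cords, and -1.34 ± 0.95 in 12 males against -1.22 ± 0.48 in 11 females. The ranges overlapped in all 3 comparisons, and the balance, as a score over the members, was not tested.

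Some caudal genes that had no part in the balance moved with it. Hoxc12, next to Hoxc11 and faint everywhere, had no count in the 6 cords of lowest balance and at least 2 counts in each of the other 17, with 67 at most. A count of 0 allows up to 3 counts in a library if counts are independent, and more where both mates of a fragment were counted, so the low cords and the faintest of the others cannot be told apart one by one. Hoxd13 correlated with the balance at r = 0.78 over 23 cords. The Hox9 genes, which also had no part in it, did not rise with it. Their r was -0.21 for Hoxa9, -0.12 for Hoxb9, -0.30 for Hoxc9 and -0.0051 for Hoxd9. In the same order rho was -0.17, -0.13, -0.60 and -0.16, so that by rank Hoxc9 was lower where the balance was higher. These correlations are descriptions, since the points share their libraries and the balance was built from members.

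By the same measure, 7 of 15872 genes with a mean of at least 1 CPM had an r beyond 0.8 in either direction, against a median r of 0.00 over all of them. Of these, 4 were Hox genes of the balance itself (Hoxc11, Hoxd10, Hoxa11 and Hoxd11). The next was Hotair, a long noncoding RNA transcribed between Hoxc11 and Hoxc12, at r = 0.98. It had 0.0208 CPM (library totals alone) in the lowest cord, at most 0.604 in the 6 low cords, and 1.10 to 2.72 in the other 17. Il1f9, an interleukin of the IL-1 family, had r = 0.92, with 0.395 to 2.83 CPM. The last, Slc17a7, ran the other way at r = -0.83. Slc17a7 encodes a vesicular glutamate transporter and is known in the cord from neurons of Clarke's column, a nucleus of thoracic and upper lumbar segments. It had 4.80 CPM in the cord of lowest balance, 2.06 to 4.80 in the 6 low cords, and 0.420 to 1.46 in the other 17. In the ganglion-like library it had 132 CPM, far above every cord. Which cells gave the Slc17a7 counts of the cords was not tested.

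Markers of some other cells moved with the balance as well. The summed CPM of 5 Schwann cell genes ran from 283 to 351 in the 6 low cords and from 313 to 658 in the others (r = 0.52), and that of 6 motor neuron genes had r = 0.55, which became 0.31 without Chrna7-cKO male paclitaxel replicate 3 and WT male vehicle replicate 3. The sum of 5 oligodendrocyte genes had r = -0.61 (rho -0.57) and that of 5 astrocyte genes r = -0.51 (rho -0.31). For the Schwann cell and motor neuron sums rho was 0.54 and 0.40. Sums of inhibitory neuron, sensory ganglion neuron and skeletal muscle markers had r of 0.25, 0.38 and -0.39 (rho 0.12, 0.36 and 0.05). The forebrain and midbrain sum had r = 0.04. Hoxd10 was also set against single genes of peripheral myelin, in a family of 5 added after seeing the data (n = 23). Prx had r = 0.53 (rho 0.51), Pmp22 0.54 (rho 0.64), Egr2 0.46 (rho 0.34) and Pmp2 0.59 (rho 0.28). The adjusted permutation p of these r ran from 0.00857 to 0.0235, and those of the rho were 0.025, 0.00765, 0.145 and 0.199. The r of Pmp2 was 0.20 without Chrna7-cKO male paclitaxel replicate 3 and WT male vehicle replicate 3. In bulk tissue, fewer cells of a type and less RNA per cell cannot be told apart. The exact level at which each cord was cut is not in the labels, and its part in this spread was not tested.

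No Hox gene passed the test for treatment, genotype or sex. The test was edgeR's quasi-likelihood test over 25372 genes with Benjamini-Hochberg adjustment and a threshold of 0.05, and 35 members entered it (Hoxa13, Hoxb13, Hoxc13 and Hoxd12 did not). For paclitaxel against vehicle over all cords, 0 of 35 members were called against 0.0197% of all genes, and 5 had an unadjusted p under 0.05, as did 10.2% of all genes. For knockout against wild-type over all cords 0 of 35 were called against 0.0118% of all genes, and for males against females 0 of 35 against 0.918%. Within wild-type cords paclitaxel gave 0 of 35 called against 0% of all genes, and within knockout cords 0 of 35 against 0.0236%. The knockout under vehicle gave 0 of 35 against 0.00788%, the knockout under paclitaxel 0 of 35 against 0.00394%, and the interaction of genotype and treatment 0 of 35 against 0%. In every contrast 0 of 35 lies near the share of all genes. In these last 7 contrasts, 0, 1, 4, 0, 0, 1 and 0 members had an unadjusted p under 0.05, against 3.36, 13.2, 7.97, 11.3, 5.20, 6.18 and 8.41% of all genes, and the 8 contrasts share cords. In DESeq2 and limma voom the counts of called members were also 0 in all 8 contrasts. Without the filter on low counts, Hoxb6 and Hoxb8 were called for paclitaxel in wild-type cords and Hoxd11 for paclitaxel in knockout cords, in a fit that called 254 and 470 genes in all there.

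Under paclitaxel the smallest p over all cords was that of Hoxb5, a gene of cervical and brachial position. It had 22.7 to 30.8 CPM (median 26.3) in 11 paclitaxel cords and 20.001 to 26.1 (median 24.8) in 12 vehicle cords, a log2 difference of 0.12 (SE 0.04, edgeR adjusted p = 0.342). The groups overlapped between 22.7 and 26.1. Hoxa4 had 3.24 ± 0.350 against 3.61 ± 0.223 CPM (log2 difference -0.17, edgeR adjusted p = 0.368), and the marker Hoxa9 69.7 ± 3.31 against 66.4 ± 2.80 (0.07, edgeR adjusted p = 0.401). In wild-type cords alone, Hoxb6 had 32.3 to 46.6 CPM (n = 5) against 30.7 to 35.7 (n = 6), a log2 difference of 0.20 (SE 0.08, edgeR adjusted p = 0.537), Hoxa9 a difference of 0.10 and Hoxa3 of 0.17 (edgeR adjusted p = 0.592 for both). In knockout cords the smallest p were those of Hoxa4 (-0.14), Hoxb5 (0.09) and Hoxb9 (0.08), with edgeR adjusted p from 0.559 to 0.6246.

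Between genotypes, the smallest p over all cords were those of Hoxa7, Hoxb5 and Hoxa3, with log2 differences of -0.056, -0.072 and -0.070 and an edgeR adjusted p of 0.99965 for each. With the ganglion-like library these differences became 0.0039, 0.0015 and 0.0055. Under vehicle, Hoxd3 (0.17), Hoxd4 (0.13) and Hoxb9 (-0.073) had edgeR adjusted p of 0.911 to 0.913, and Hoxd3 and Hoxd4 share exons. Under paclitaxel, Hoxa3 (-0.17), Hoxa7 (-0.093) and Hoxb6 (-0.13) had edgeR adjusted p of 0.790 to 0.819, and with the ganglion-like library Hoxa7 turned to 0.027 and Hoxb6 to 0.059. The interaction had its smallest p in Hoxa3 (-0.20), Hoxb6 (-0.17) and Hoxd3 (-0.19), with edgeR adjusted p of 0.598 to 0.671, and that of Hoxb6 turned to 0.018 with the ganglion-like library. Between the sexes, Hoxd1 had 0.978 to 2.47 CPM (median 1.42) in 12 males and 0.958 to 1.75 (median 1.18) in 11 females, a log2 difference of 0.29 (SE 0.12, edgeR adjusted p = 0.254), which turned to -0.29 with the ganglion-like library. Hoxb4 (-0.093) and Hoxa4 (0.10) followed with edgeR adjusted p of 0.492 and 0.525.

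For the caudal genes the spread between cords set wide limits on any difference. Paclitaxel against vehicle over all cords gave a log2 difference of -0.0083 for Hoxd10 with a 95% interval from -0.51 to 0.50, of -0.0023 for Hoxc11 (-1.03 to 1.03), of -0.22 for Hoxd11 (-1.22 to 0.77) and of 0.098 for Hoxa11 (-0.55 to 0.75). The interval of Hoxc10 was -0.11 to 0.13 and that of Hoxa10 -0.069 to 0.097.

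The genes that work with or on the Hox clusters were in the same fit. Of all genes tested, 0.918% were called for males against females and 0 to 0.0236% in the other contrasts. Of 9 TALE homeodomain genes (Meis, Pbx and Pknox), whose proteins bind DNA together with Hox proteins, 0 were called in any of the 8 contrasts. The smallest edgeR adjusted p was 0.248, for Meis3 in males (30.1 ± 1.51 CPM) against females (28.4 ± 1.99). Of 19 Polycomb and trithorax genes, which keep Hox clusters silent or active, 1 was called: the X-linked demethylase gene Kdm6a was lower in males (38.4 ± 3.22 CPM, n = 12) than in females (61.6 ± 3.73, n = 11), a log2 difference of -0.69 (edgeR adjusted p = 4.56e-15). Phc2, a subunit of a Polycomb complex, had 77.9 ± 4.02 CPM in males and 73.3 ± 2.72 in females (edgeR adjusted p = 0.0589). Suz12, a Polycomb subunit, had 51.1 ± 1.58 CPM in knockout paclitaxel cords and 56.3 ± 2.78 in knockout vehicle cords (log2 difference -0.14, edgeR adjusted p = 0.202). Of 13 noncoding and flanking genes of the clusters, 11 were tested and 0 were called in any contrast. The smallest edgeR adjusted p was that of Hotairm1, a noncoding RNA at the rostral end of cluster a, at 0.231 in males against females.

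The ganglion-like library held fewer Hox counts than any cord. Its summed Hox level was 308 CPM (library totals alone in all values of this library), against 736 to 931 in the 23 cords. One library has no replicate, and no test was made. Of 32 members with at least 1 CPM in cords or in that library, 26 lay below the range of the cords, 5 within it and 1 above, while of all 16694 genes 40.9% lay below their range and 33.3% above it. At least 2-fold below the range were 14 of 32 members, against 13% of 16694 genes, and at least 2-fold above it was 1, against 9.49%. The median log2 ratio to the median cord was -1.20 for these members and -0.070 for all genes.

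**Figure D5:**
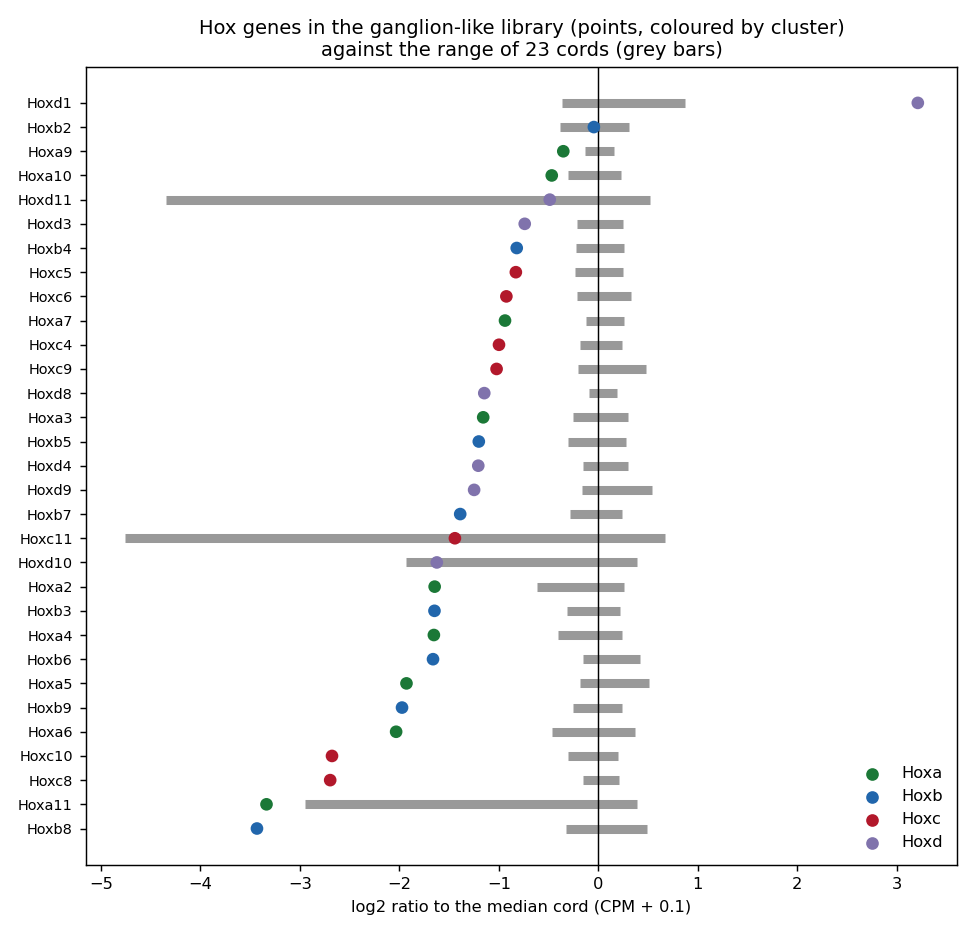
Log2 ratio of the ganglion-like library to the median cord (with 0.1 CPM added) for 31 Hox genes, points coloured by cluster, with the range of the 23 cords as grey bars. Hoxd1 lies to the right of its bar (12.7 CPM against at most 2.43), and Hoxb8, Hoxa11, Hoxc8 and Hoxc10 lie farthest to the left.

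The loss was unequal along the clusters. Hoxb8 had 9.63 CPM against 83.5 to 148 in cords, Hoxc8 9.07 against 53.3 to 68.5, and Hoxc10 8.36 against 43.6 to 61.9. Hoxa11 had 0.454 against 0.624 to 7.21, and Hoxa6 1.54 against 4.76 to 8.59. These 5 members had the lowest ratios. The lumbar genes of cluster a stayed near the cords: Hoxa9 had 52.7 CPM against 61.1 to 75.0, and Hoxa10 34.5 against 38.6 to 55.8. Of the cords' median, cluster a kept 59.6%, cluster d 51.9%, cluster c 26.3% and cluster b 24.6%. Single genes weigh on these sums. Hoxa9 and Hoxa10 gave 52.7 and 34.5 of the 124 CPM of cluster a. Hoxd1, which lay above the cords, gave 12.7 of the 68.4 CPM of cluster d. The shares therefore do not describe each gene of a cluster.

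Hoxd1 was the exception. In the ganglion-like library it had 12.7 CPM from 1205 counts, against 0.9751 to 2.43 CPM in the 23 cords. Hoxd1, at the rostral end of cluster d, is known in the mouse from developing nociceptive sensory neurons. Members within the cord range included Hoxb2 (3.11 CPM against 2.43 to 4.00), Hoxd11 (3.01 against 0.114 to 6.14), Hoxc11 (1.31 against 0.0416 to 5.98) and Hoxd10 (8.13 against 6.53 to 33.0). For the last 3 caudal genes that range is as wide as it is because of the low cords described above. The caudal balance of this library, -1.07, lay within that of the cords. The library also had a summed 5474 CPM of the 10 ganglion neuron markers against 90.6 to 150 in cords, 3669 of the 5 Schwann cell markers against 283 to 658, and 412 of the 5 muscle markers against 2.18 to 36.6. The part of these cells in the Hox ratios was not tested.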

How the data were processed

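The authors deposited whole-number counts per gene symbol for 24 libraries, without normalization. Reads were aligned with STAR (version not given in the sources used here), per the submitters' processing notes, and counted with featureCounts 1.6.2 over exons of the Ensembl release 96 annotation of GRCm38, without strand and without a read-pair option, per the file headers. Mates seem to have been counted singly: small counts were odd in only 34.4 to 37.3% of cases.

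Counts of 23 cords were fitted with edgeR 4.0.16 (R 4.3.3): filterByExpr, TMM factors, robust quasi-likelihood models with 8 group means. The ganglion-like library was left out. No 2 libraries agreed within sampling noise (lowest chi-square per degree of freedom 9.04 over 276 pairs). Alternatives used DESeq2 1.42.0 and limma 3.58.1. The fit was also run on simulated counts, whose outcome is not given here. They were drawn at the dispersion of genes at the same abundance. They therefore do not cover genes far above it, such as Hoxc11 with a ratio of 34.1. The labels call the replicates biological.

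Members and lists were chosen with earlier results of these data known. Named members are the 3 lumbar markers, the leading and most caudal gene of each cluster, paralogues 10 to 13, the 3 smallest p per contrast, and the extremes of dispersion (3 at each end) and of the ganglion-like ratio (5 at each end, among those with at least 1 CPM). One member and 2 marker genes enter the fits and counts but are not reported here.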

Additional observations from a re-analysis of the deposited data

Results flagged for a closer look

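Within the 4 sets of 5 or 6 cords of one genotype and treatment, 4 of 28 values checked (the Hox10 and Hox11 genes and the caudal balance) had a lowest cord whose gap to the next exceeded Dixon's 95% limit. Chance flags about 1 in 20 such sets, and the 7 quantities share cords. Chrna7-cKO male paclitaxel replicate 3 stood apart among the 6 knockout paclitaxel cords in Hoxa10 (38.4 CPM, next 47.3) and in caudal balance (-3.94, next -1.73). Chrna7-cKO male vehicle replicate 1 stood apart among the 6 knockout vehicle cords in Hoxd10 (18.3 CPM, next 24.4). WT female paclitaxel replicate 1 stood apart among the 5 wild-type paclitaxel cords in caudal balance (-2.15, next -1.11). The males and females of each set are pooled in this check.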

How the results depend on the processing

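The count of called Hox genes stayed at 0 in all 8 contrasts with all 24 libraries, DESeq2, limma voom, DESeq2 size factors, library totals alone, the replicate block, the caudal balance as a covariate (added after seeing the data) and without each cord in turn (0 to 0). Without the filter on low counts it became 2 for paclitaxel in wild-type cords (Hoxb8, log2 difference 0.17, edgeR adjusted p = 0.0416, and Hoxb6, 0.20, 0.0237) and 1 for paclitaxel in knockout cords (Hoxd11, -0.47, 0.0028). That setting called 254 and 470 genes in all in these contrasts, against 0 and 6 with the filter, and gave Hoxd11 an SE of 0.11 against 0.64; the cause was not tested. No pairing of cords by replicate number was seen over the 5000 genes of largest spread around the group means. Same-numbered cords correlated at a mean of 0.00 (-0.057 to 0.062), and 10 of 23 matched their own number best. With only 3 replicate numbers, some such matches arise by chance. Faint genes are among the 5000, and their count noise lowers r, so the check cannot exclude a pairing. The block called 0 Hox genes in every contrast and moved no count of them.

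With all 24 libraries the sign of some named log2 differences turned. Knockout against wild-type became 0.0039 for Hoxa7, 0.0015 for Hoxb5 and 0.0055 for Hoxa3 over all cords, and 0.027 for Hoxa7 and 0.059 for Hoxb6 under paclitaxel. Hoxd1 in males against females became -0.29, and the interaction of Hoxb6 became 0.018. None passed the test. The called genes of the 3 pathway lists, 1 over the 8 contrasts, were 2 without the filter, with library totals alone and with the replicate block, 4 with DESeq2, and 1 to 3 without each cord in turn (3 without Chrna7-cKO male vehicle replicate 1, and 2 without replicates 2 or 3 of that group, Chrna7-cKO male paclitaxel replicate 1 or WT male paclitaxel replicate 3). Counts of all genes called, 5, 3, 233, 0, 6, 2, 1 and 0 in the order of the 8 contrasts in the report, were 0, 2, 28, 0, 0, 1, 0 and 0 with all 24 libraries, 338, 99, 749, 254, 470, 111, 215 and 366 without the filter, and 167, 5, 583, 4, 137, 4, 3 and 0 with DESeq2. The block gave 9 for the first and 0 for the seventh, library totals alone 3 for the first, and the covariate 0 for the seventh. The SD of the caudal balance, 0.75, was 0.45 from cluster a alone, 0.89 from cluster c alone and 0.93 from cluster d alone. Without each cord in turn the SD of the full balance was 0.49 to 0.77, lowest without Chrna7-cKO male paclitaxel replicate 3. Of 9 gene pairs, 7 passed, and 5 to 8 without each cord in turn. The 20 members with a dispersion ratio above 1 became 18 to 21 without each cord in turn, and 19 without the 2 cords of lowest balance. Members outside the cord range by 2-fold in the ganglion-like library, 15, were 14 with TMM factors and 19 against the 2 other cords of its group. Faint genes (paralogues 12 and 13) are limited by depth.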
